A study of Homo sapiens with 26 samples.

Results

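Ribosome footprint counts are described here for 10 genes of cellular iron handling, out of the 19478 coding transcripts in each of 4 count tables. They were taken by symbol: TFRC, STEAP3, SLC11A2 and SLC25A37 (uptake), FTH1, FTL and NCOA4 (storage), SLC40A1 (export), and ACO1 and IREB2 (control). Each of the 10 symbols stood on 1 row of every table. No measured value entered the choice of these genes by their symbols, but earlier results of the same data were known when they were chosen.

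Cells take up iron bound to transferrin through the transferrin receptor TFRC, reduce it in the endosome with STEAP3 and release it to the cytosol through SLC11A2 (DMT1), and SLC25A37 (mitoferrin) carries it into mitochondria. Surplus iron is stored inside ferritin, a shell of FTH1 and FTL chains, NCOA4 delivers ferritin to lysosomes for breakdown, and SLC40A1 (ferroportin) exports iron. When iron is scarce, the iron regulatory proteins encoded by ACO1 and IREB2 bind iron-responsive elements, which are short mRNA hairpins: binding before a coding sequence blocks its translation, and binding behind it protects the mRNA from decay. Erythroid precursors are known for high uptake of iron, which they need for haem.

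The libraries hold mRNA fragments protected by ribosomes from RNase I, and the study, by its title, compares ways of removing ribosomal RNA from them. K562 is a human chronic myeloid leukaemia line with erythroid features, and HEK293T and HEK293FT are lines from human embryonic kidney. The labels give DMEM for the HEK cells and RPMI for K562, both with 10% serum, and name no treatment or genetic change. The iron content of the media is not given in the sources used here. The HEK293T table (fragments of 15 to 35 nt) held 2 libraries each without depletion and with Ribo-Zero Gold, RiboCop or NEBNext. The HEK293FT table (15 to 35 nt) held 1 undepleted library and 1 depleted with custom oligos. The first K562 table, on size selection, held 1 undepleted and 1 NEBNext library at 20 to 34 nt and 1 of each at 20 to 60 nt. Both of its libraries titled as undepleted carry another label naming NEBNext, and every statement on them rests on the titles. The second K562 table, on kits, (20 to 34 nt) held 2 undepleted libraries and 2 per kit for FastSelect, riboPools and a riboPools variant eluted cold. It also held 4 single Ribo-Zero Plus libraries, which had no addition, oligos, formaldehyde or both. Library totals ran from 46858 to 5795774 counts. The labels do not say that replicates came from separate cultures, so p-values then measure only the spread between these libraries. Cell line, experiment, medium and size selection changed together and cannot be told apart. Of 10 fixed erythroid and haematopoietic markers, 10 were higher in K562 than in HEK293T, with GATA1 at 409 ± 0.22 CPM (SD, n = 2) against 0 counts, and 5 of the 6 tested HEK293 markers were lower.

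The iron-responsive elements of these genes were searched for with a strict rule because they define which mRNAs the ACO1 and IREB2 proteins bind. The untranslated regions (UTRs) of the deposited transcripts were searched on the mRNA strand for a C, any 5 bases, the letters CAGTG and any base, with the requirement that the 5 bases before CAGTG can pair with the 5 bases after this stretch, G with T allowed. Such an element lay in the 5′ UTR of 20 of 18100 transcripts (0.11%) and in the 3′ UTR of 97 of 18333 (0.529%). The letters alone, without the stem, were in 8.67% and 31.4%. Among the 10 genes, FTH1, FTL and SLC40A1 had 1 element each in the 5′ UTR, and TFRC had 4 in the 3′ UTR. The other 6 genes had no match under this rule in the deposited transcript, which says only that these letters and this stem are not there. Elements with other letters or an incomplete stem would be missed in any of the 10 genes, so the numbers per gene can be too low. The elements are shown 5′ to 3′ with the bulged C and the last 6 bases of the motif in capitals, from GENCODE release 29 on GRCh38, each inside 1 exon.
FTH1, 5′ UTR, chr11:61967575-61967602, minus strand: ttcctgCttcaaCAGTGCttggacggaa
FTL, 5′ UTR, chr19:48965335-48965362, plus strand: ctcttgCttcaaCAGTGTttggacggaa
SLC40A1, 5′ UTR, chr2:189580662-189580689, minus strand: caacttCagctaCAGTGTtagctaagtt
TFRC, 3′ UTR, chr3:196050980-196051007, minus strand: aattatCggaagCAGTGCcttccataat
TFRC, 3′ UTR, chr3:196050576-196050603, minus strand: cattatCgggagCAGTGTcttccataat
TFRC, 3′ UTR, chr3:196050511-196050538, minus strand: ctgtatCggagaCAGTGAtctccatatg
TFRC, 3′ UTR, chr3:196050464-196050491, minus strand: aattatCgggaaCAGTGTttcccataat
The counts cover coding sequences, so no footprint value bears on the elements themselves.

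The members differ in how much of their coding sequence can be told from other loci, and this bears on every ferritin value below. Ferritin genes have many processed copies in the genome. Of the 525 words of 28 nt in the FTH1 coding sequence (552 nt), 91.4% also occurred in transcripts annotated at another locus, spread over 20 genes of which 17 are pseudogenes. For FTL (528 nt) the share was 62.3%, with 6 pseudogenes such as FTLP3 (272 of 501 words). NCOA4 (1953 nt) shared 32.8% with 4 pseudogenes, and IREB2 (2892 nt) shared 0.698% with 1. TFRC, STEAP3, SLC11A2, SLC25A37, SLC40A1 and ACO1 shared none at 28 nt. Among all 18947 coding sequences long enough, 34.7% shared any word of this length. How reads matching several loci were counted is not given in the sources used here. FTH1, FTL and NCOA4 levels are therefore uncertain, both against other genes and, where the copies are expressed differently, between lines. FTH1 also overlaps BEST1, and STEAP3 overlaps the antisense gene STEAP3-AS1, and the use of strand in counting is not given either.

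**Figure D1:**
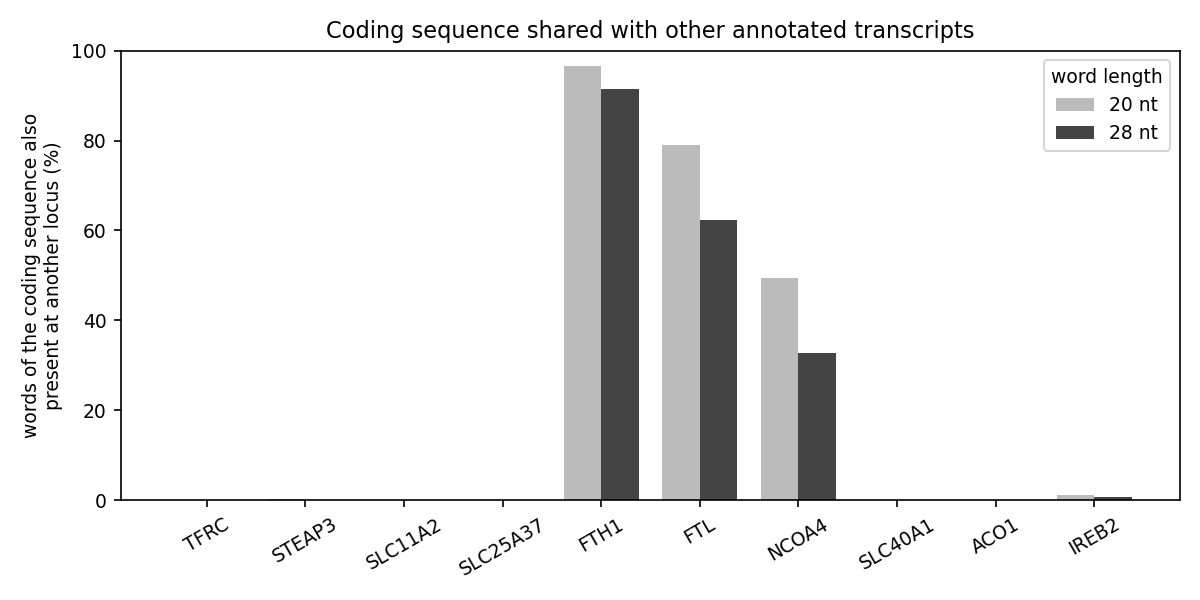
Share of words of 20 nt or 28 nt in each coding sequence (percent, y axis) that also occur in annotated transcripts of another locus, for the 10 iron genes. FTH1, FTL and NCOA4 stand out at 91.4%, 62.3% and 32.8% for 28 nt, and IREB2 is at 0.698%.

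TFRC carried the most footprints per length of the 10 genes in K562, whereas FTH1 did so in HEK293T. Levels between genes are given as CPM (per-million share of the counts of a library) per kb of coding sequence in undepleted libraries. In the K562 kit table TFRC had 510 ± 7.52 (SD, n = 2), followed by FTH1 at 229 ± 35.6, NCOA4 at 221 ± 5.11 and FTL at 180 ± 7.62. FTH1 and NCOA4 did not differ beyond their spread there. IREB2 (37.8 ± 3.76), ACO1 (25.3 ± 2.69), STEAP3 (25.1 ± 1.86) and SLC25A37 (21.4 ± 3.37) formed a lower tier, in which the last 3 overlapped. SLC11A2 (8.70 ± 1.73) and SLC40A1 (6.88 ± 4.65) were lowest, and they also overlapped. In HEK293T the order began with FTH1 at 254 ± 25.2 CPM per kb (SD, n = 2), then TFRC at 113 ± 46.7, NCOA4 at 72.5 ± 6.0, FTL at 60.7 ± 18.9 and IREB2 at 56.0 ± 9.98. From TFRC to IREB2 each neighbouring pair in this order overlapped within 1 SD. STEAP3 (38.0 ± 21.6), ACO1 (36.7 ± 3.34) and SLC11A2 (19.5 ± 0.313) followed, and SLC25A37 and SLC40A1 rested on 1 count each. The single undepleted HEK293FT library began alike, with FTH1 at 137, TFRC at 101, NCOA4 at 96.1 and FTL at 39.9 CPM per kb. The place of ferritin in this order depends on the length used. When CPM was divided by the positions whose 28 nt occur at no other locus (45 for FTH1 and 189 for FTL), FTH1 came to 2814 and TFRC to 517 CPM per kb of such positions in K562, so FTH1 then stood first there too. That scale would hold only if reads matching several loci had been dropped.

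**Figure D2:**
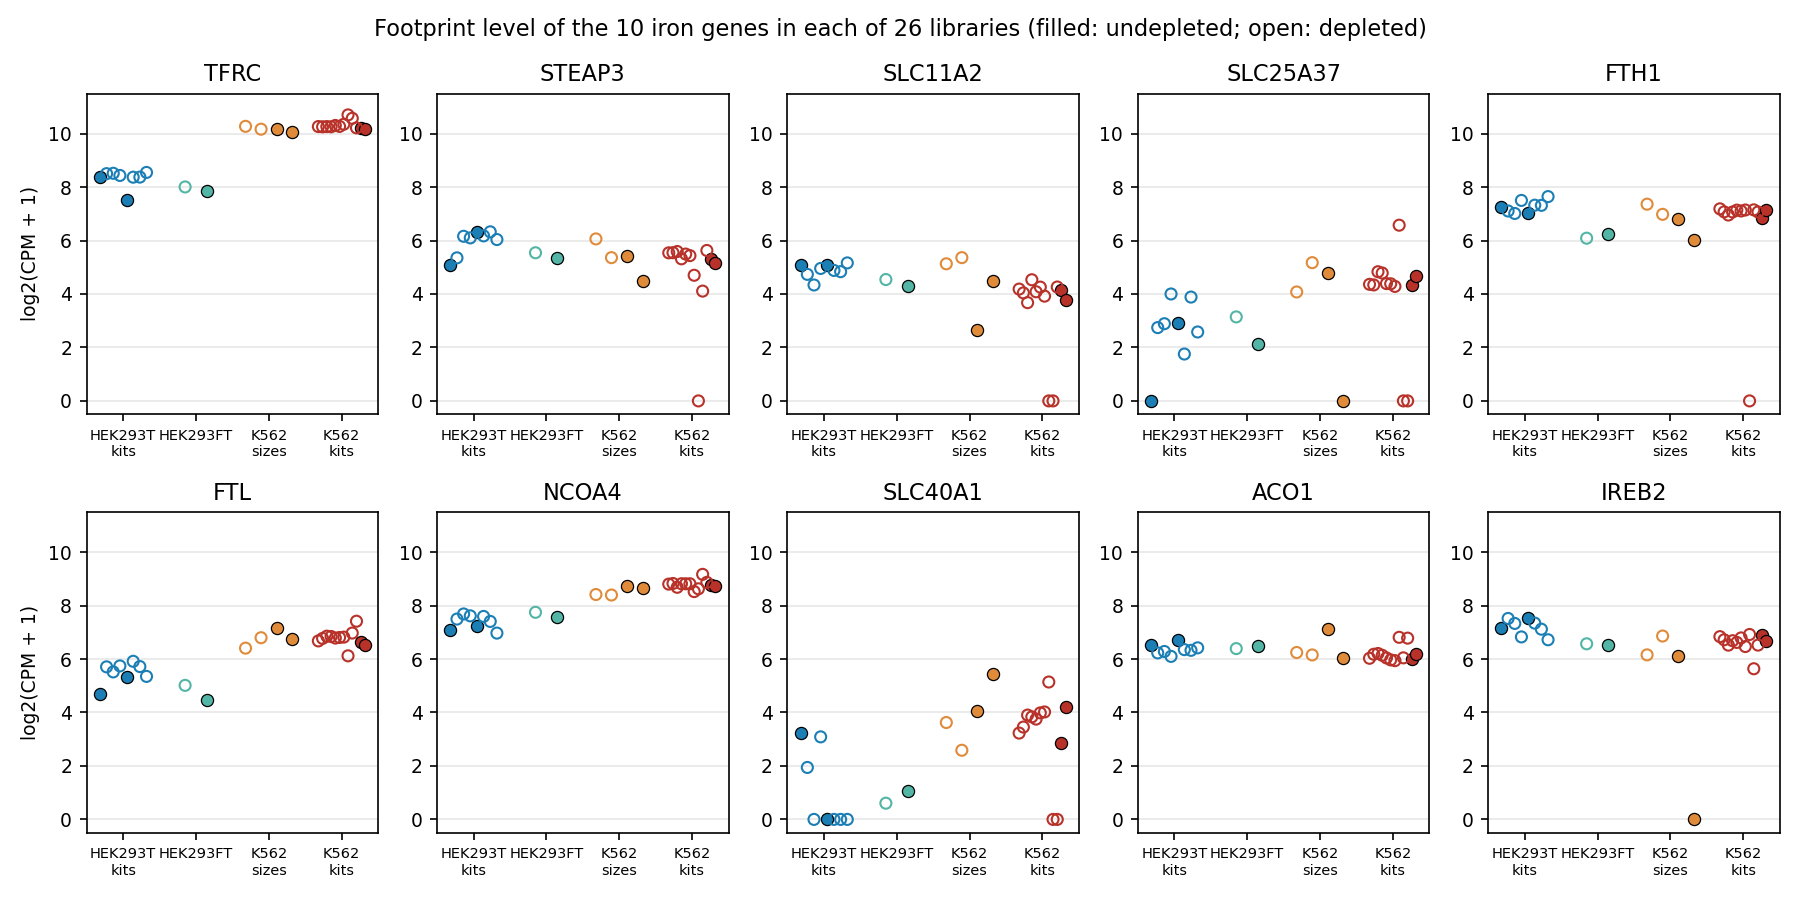
Level of each iron gene, as log2(CPM + 1), in all 26 libraries, split by count table on the x axis. Filled points are undepleted and open points depleted libraries, and a point at 0 is a library with 0 counts. TFRC, FTL and NCOA4 of K562 lie above both HEK293 lines without overlap.

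Footprints of TFRC, the transferrin receptor, showed the clearest difference. They were 4.26- to 5.65-fold higher in K562 in the main fits of the 3 comparisons tested, and uptake of iron itself was not measured. The undepleted libraries held 1177.5 and 1153 CPM of TFRC in the K562 kit table and 1141 and 1067 CPM in the size-selection table. HEK293T held 333 and 182 CPM and HEK293FT 230 CPM, so the 2 HEK293T replicates differed by more than the 4 K562 libraries. The groups did not overlap. In edgeR's quasi-likelihood test with Benjamini-Hochberg adjustment over 9644 genes, TFRC was higher in K562 than in HEK293T by 2.50 ± 0.14 on the log2 scale (SE, 5.65-fold, adjusted p = 4.7e-69). Without 1 library this difference ranged from 2.06 to 2.92, and the HEK293T values rest on 40 and 28 counts. HEK293FT had 1 undepleted library, so all its tests take their spread from the other groups. TFRC was higher than in that library by 2.45 ± 0.089 (edgeR adjusted p = 1.5e-161). Over all 26 libraries the 16 of K562 ranged from 1067 to 1662 CPM (median 1224) and the 10 of the HEK293 lines from 182 to 373 CPM (median 332). A bulk library cannot separate more expressing cells from more RNA per cell, and no mRNA libraries were analysed here, so a footprint level holds both mRNA amount and translation.

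The other uptake genes differed from TFRC in their pattern. STEAP3, the endosomal ferrireductase, had 38.8 and 34.9 CPM in the undepleted K562 kit libraries against 33.3 and 78.2 in HEK293T and 40.0 in HEK293FT. SLC11A2, which passes ferrous iron out of the endosome, had 16.7 and 12.6 CPM against 33.3 and 32.6 in HEK293T and 18.9 in HEK293FT. Neither passed the test in the undepleted libraries. Their log2 differences to HEK293T were -0.39 ± 0.41 (95% interval -1.2 to 0.42) and -0.88 ± 0.61 (-2.07 to 0.31), with edgeR adjusted p of 0.49 and 0.27. Both rest on few reads, as HEK293T held 16 counts of STEAP3 and 9 of SLC11A2 over 2 libraries. SLC25A37, the mitochondrial importer, had 19.4 and 24.2 CPM in K562 and 26.3 CPM and 0 counts in the size-selection table, against 0 and 1 counts in HEK293T and 3 counts in HEK293FT. Its ratio of summed counts, kit table over HEK293T, was 5.93, with a 95% counting interval of 1.01 to 239 (exact binomial). Its fitted log2 difference of 2.77 ± 1.08, which depends on the prior count of the fit, passed the edgeR test with an adjusted p of 0.031, but not by DESeq2 (0.17), with total count scaling (0.066), or without any 1 of the 4 libraries of the pair (0.071 to 0.22). The difference itself moved to 1.95 without HEK293T replicate 1 and 7.16 without replicate 2. Against HEK293FT the ratio of SLC25A37 counts was 6.51 (counting interval 2.10 to 32.7, edgeR adjusted p = 0.00018). Over all 16 K562 libraries its level ran from 0 to 94.2 CPM and overlapped the 10 HEK293 libraries (0 to 15.0 CPM). In the 9 deepest K562 libraries (1031889 counts or more) it lay between 18.5 and 27.5 CPM, above the highest of the HEK293 libraries. That depth limit was set for K562 alone, and the share of all genes apart under it was not counted.

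Storage genes split between the 2 ferritin chains. FTL, the light chain, had 97.8 and 92.1 CPM in the undepleted K562 kit libraries and 142 and 107 in the size-selection table, against 25.0 and 39.1 in HEK293T and 21.1 in HEK293FT. The ranges did not overlap, although the HEK293T values rest on 3 and 6 counts. FTL was higher in K562 than in HEK293T by 1.79 ± 0.41 on the log2 scale (3.47-fold, edgeR adjusted p = 7.9e-05) and than in HEK293FT by 2.27 ± 0.28 (edgeR adjusted p = 1.5e-14). FTH1, the heavy chain with the ferroxidase activity, had 113 and 141 CPM in the K562 kit libraries and 110 and 64.0 in the size-selection table. HEK293T held 150 and 130 CPM of it and HEK293FT 75.5, so the lines overlapped. Its log2 difference to HEK293T was 0.13 ± 0.25 (95% interval -0.37 to 0.62, edgeR adjusted p = 0.74), and its sign turned with total count scaling and with 2 other alternatives. Against HEK293FT FTH1 was higher by 0.85 ± 0.19 (edgeR adjusted p = 4.2e-05). NCOA4, the receptor that takes ferritin to lysosomes, had 439 and 424 CPM in the K562 kit libraries and 421 and 405 in the size-selection table, against 133 and 150 in HEK293T and 188 in HEK293FT. NCOA4 was higher in K562 by 1.87 ± 0.20 against HEK293T (3.65-fold, edgeR adjusted p = 2.0e-19) and by 1.31 ± 0.12 against HEK293FT (edgeR adjusted p = 2.0e-28).

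Export and control gave smaller or less certain differences. SLC40A1, the ferroportin exporter, had 6.16 and 17.4 CPM in the undepleted K562 kit libraries, with 1 and 0 counts in HEK293T and 1 count in HEK293FT. Its ratio of summed counts to HEK293T was 3.16 with a counting interval of 0.516 to 130, and its log2 difference of 1.87 ± 1.34 did not pass (edgeR adjusted p = 0.29). It moved to 6.27 without HEK293T replicate 1 and 0.72 without replicate 2. Against HEK293FT the ratio was 10.4 (1.70 to 427), called by edgeR (adjusted p = 0.0072) and not by DESeq2 (adjusted p = 0.14). Without 1 of the K562 libraries SLC40A1 had too few counts to be tested. Over all libraries K562 held 347 counts in 27561047 and the HEK293 lines 7 in 8476008, a ratio of 15.2 (counting interval 7.32 to 38.2). That interval pools kits, experiments and both HEK293 lines and leaves out the spread between libraries. Single K562 libraries ran from 0 to 42.7 CPM, and HEK293FT gave 6648535 of the 8476008 counts. ACO1, cytosolic aconitase when it carries an iron-sulphur cluster and IRP1 when it does not, had 62.5 and 72.7 CPM in the K562 kit libraries and 137 and 64.0 in the size-selection table, against 91.7 and 104 in HEK293T and 87.7 in HEK293FT. Its log2 difference to HEK293T was -0.28 ± 0.31 (95% interval -0.90 to 0.33, edgeR adjusted p = 0.52). IREB2, which encodes IRP2, had 117 and 102 CPM in the K562 kit libraries and 68.3 and 0 in the size-selection table, against 142 and 182 in HEK293T and 92.1 in HEK293FT. Its differences were -0.31 ± 0.25 to HEK293T and 0.36 ± 0.19 to HEK293FT, with edgeR adjusted p of 0.34 and 0.093.

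In sum over the undepleted libraries, 4 of the 10 genes were higher in K562 than in HEK293T and 0 were lower, in a comparison where 18.9% of all genes tested were higher and 16.7% lower (35.5% called). The median log2 difference was 0.96 over the 10 genes and 0.04 over all genes. None of the 10 genes lay near their median, which falls in a gap between FTH1 (0.13) and FTL (1.79). The values ran from -0.88 (SLC11A2) to 2.77 (SLC25A37). Total count scaling moved the median of all genes to -0.23 and the split from 1818 higher and 1606 lower genes to 1238 and 2122, and 3 of the 10 genes were then higher. Against HEK293FT, 6 of the 10 were higher and 0 lower (26% and 26.3% of all genes, 52.3% in all). HEK293FT and HEK293T, which were also separate experiments, differed in 0 of the 10 genes by edgeR (4.21% of all genes) and in 0 by DESeq2. At an unadjusted p under 0.05 there were 3 of them: IREB2 (-0.68 ± 0.28), FTH1 (-0.72 ± 0.31) and NCOA4 (0.55 ± 0.26). The 3 comparisons share libraries. By overlap alone, every one of the 4 undepleted K562 libraries was above every one of the 3 undepleted HEK293 libraries for TFRC, FTL and NCOA4 (16.5% of genes). Over all 26 libraries the same 3 genes were above without overlap (4.42% of genes) and none of the 10 was below (8.80%). For the undepleted libraries alone, 21.7% of genes were below.

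**Figure D3:**
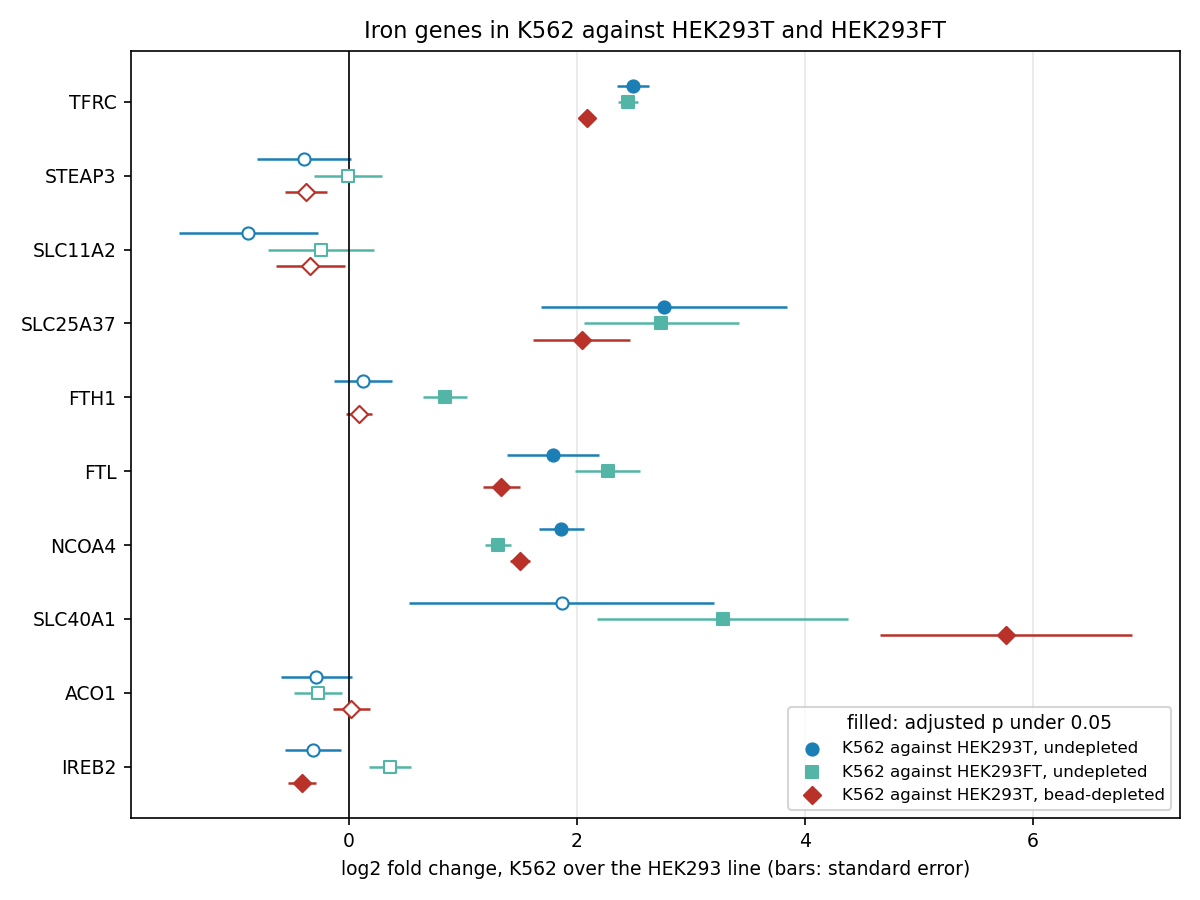
Log2 fold change of each iron gene in K562 over HEK293T or HEK293FT (x axis), with the standard error as a bar. Circles and squares are undepleted libraries and diamonds are bead-depleted ones, and filled symbols passed an adjusted p of 0.05 in edgeR's quasi-likelihood test. TFRC, FTL, NCOA4 and SLC25A37 are filled in all 3 comparisons, and STEAP3, SLC11A2 and ACO1 in none.

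The cell line comparison was repeated in libraries that the undepleted one did not use, where rRNA had been pulled out with beads: 4 of K562 (riboPools, with and without cold elution) and 4 of HEK293T (Ribo-Zero Gold and RiboCop). No kit was shared by both lines here, so kit and cell line cannot be told apart either. TFRC ranged from 1221 to 1263 CPM in K562 and from 330 to 365 in HEK293T, a log2 difference of 2.09 ± 0.061 (edgeR adjusted p = 1.5e-252). Over the alternative fits this difference ranged from 1.85 to 2.20, and the ratio of summed counts per total was 3.61. NCOA4 (410 to 450 against 169 to 205 CPM) was higher by 1.5 ± 0.088 and FTL (109 to 115 against 44.8 to 59.3 CPM) by 1.34 ± 0.17, with edgeR adjusted p of 2.0e-64 and 2.8e-15. SLC25A37 was higher by 2.04 ± 0.42 (edgeR adjusted p = 4.1e-06), with 371 counts against 8. SLC40A1 had 229 counts against 1, a ratio of 16.6 with a counting interval of 2.96 to 660 (edgeR adjusted p = 6.0e-07). IREB2 was lower in K562, at 90.8 to 110 CPM against 138 to 182 (-0.41 ± 0.12, edgeR adjusted p = 0.0016). Its call was lost without the filter on low counts (adjusted p = 0.056) and with riboPools and RiboCop alone (0.10). FTH1 (123 to 140 against 128 to 159 CPM), STEAP3, SLC11A2 and ACO1 were not called. In all, 5 of the 10 genes were higher and 1 lower, where 31.8% and 31.6% of 10089 genes were (63.4% called). With total count scaling the split of all genes moved from 3210 higher and 3185 lower to 2413 and 3992, and STEAP3 was then lower too (-0.62, edgeR adjusted p = 0.0021). STEAP3 was also called without 1 Ribo-Zero Gold library (replicate 1, -0.49, adjusted p = 0.030) or without 1 riboPools library (replicate 1, -0.43, adjusted p = 0.038).

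Ratios of counts within a library do not depend on scaling between libraries. The ratio of TFRC to FTH1 counts ranged from 7.57 to 16.7 (median 9.16) in the 15 K562 libraries with FTH1 counts and from 1.40 to 3.82 (median 2.16) in the 10 HEK293 libraries, without overlap. The highest, 16.7, was the undepleted library at 20 to 60 nt, which held 3 FTH1 counts. The ratio of FTL to FTH1 ranged from 0.514 to 1.67 in K562 and from 0.167 to 0.468 in the HEK293 lines, also without overlap. Both chains have processed copies, so this ratio carries the uncertainty given above. The ratios use the same counts as the differences above and are no separate support for them. How many pairs among all genes separate the lines in this way was not counted. The ratio of NCOA4 to FTH1 overlapped, at 2.08 to 6.33 in K562, 0.625 to 1.60 in HEK293T and 2.49 to 3.19 in HEK293FT. The ratio of ACO1 to IREB2 ranged from 0.534 to 2.0 in K562 and from 0.406 to 0.952 in the HEK293 lines, and overlapped as well.

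**Figure D4:**
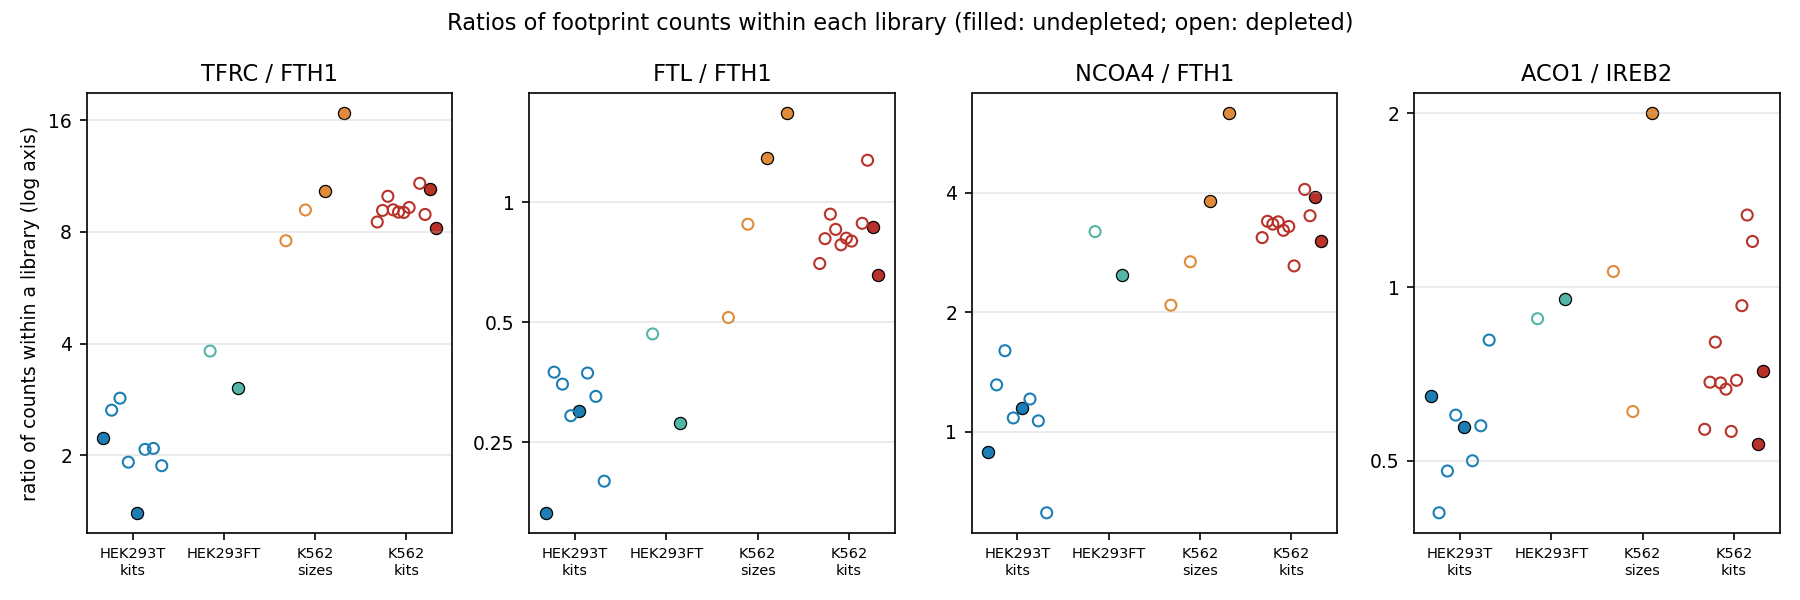
Ratio of counts of gene pairs within each library on a log axis, split by count table on the x axis, with undepleted libraries filled and depleted ones open. TFRC over FTH1 separates K562 (7.57 to 16.7) from the HEK293 lines (1.40 to 3.82), while ACO1 over IREB2 overlaps.

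No iron gene with enough counts to be tested passed in the main fit of a depletion kit against undepleted libraries of the same table. The custom oligos in HEK293FT had no replicates and were not tested. In HEK293T, 6 of the 10 genes had enough counts to be tested, without FTL, SLC11A2, SLC25A37 and SLC40A1. By edgeR 0 of them were called for NEBNext (3.24% of all genes), Ribo-Zero Gold (0.0680%) and RiboCop (0.00%), and 0 by DESeq2. TFRC was the 1 gene at an unadjusted p under 0.05 in each, by 0.55 ± 0.23, 0.46 ± 0.20 and 0.45 ± 0.22 on the log2 scale, with edgeR adjusted p of 0.195, 0.816 and 0.997. The 6 depleted libraries held 330 to 373 CPM of TFRC, so they overlapped the undepleted 333 and not the undepleted 182. The 3 comparisons share these 2 undepleted libraries.

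In the K562 kit table, the levels of abundant iron genes were nearly the same in 8 libraries without Ribo-Zero Plus. TFRC lay between 1153 and 1263 CPM (coefficient of variation 2.82%) and NCOA4 between 410 and 453 CPM (3.43%). FTL (7.65%), FTH1 (7.82%), ACO1 (6.91%) and IREB2 (8.22%) varied more, and SLC40A1, with 304 counts in all 8 libraries, the most (30.5%). By edgeR 0 of the 10 genes were called for FastSelect (0.0205% of 9761 genes), riboPools (0.0820%) and riboPools with cold elution (0.225%), and 0 by DESeq2. At an unadjusted p under 0.05 there were 0, 1 (FTL) and 1 (TFRC). For TFRC the log2 difference to undepleted was 0.07 ± 0.036, 0.07 ± 0.036 and 0.09 ± 0.034, and the upper end of its 95% interval was at most 0.16. For FTL the differences were 0.14 ± 0.12, 0.26 ± 0.12 and 0.21 ± 0.11. The smallest edgeR adjusted p of any iron gene was 0.90 for FastSelect, 0.77 for riboPools and 0.53 for cold elution. The HEK293FT pair, 1 library each, gave log2 CPM ratios of 0.15 for TFRC (1.11-fold, counting interval 0.962 to 1.29), -0.17 for FTH1, 0.57 for FTL and 0.19 for NCOA4. SLC25A37 (45 counts against 3) and SLC40A1 (3 against 1) differed by over 1, at 1.23 and -1.09. Each counting interval of the 10 genes there included no change, and 0.00% of genes with at least 100 counts on average, which leaves out FTL and the rarer members, differed by over 1 on the log2 scale.

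NEBNext, which digests rRNA with RNase H, was tested in both lines. For the K562 size-selection libraries, 0 of 6 tested iron genes were called by edgeR (2.85% of all genes), 0 at an unadjusted p under 0.05 and 0 by DESeq2. FTH1 had 163 and 125 CPM with NEBNext and 110 and 64.0 without, a difference of 0.70 ± 0.36 (95% interval -0.02 to 1.41, edgeR adjusted p = 0.36). IREB2 was at 113 and 104 CPM with NEBNext in HEK293T against 142 and 182 without (-0.59 ± 0.33), and at 70.3 and 115 against 68.3 and 0 in K562 (0.71 ± 0.49). In a joint fit of both tables the difference between those effects was 1.24 ± 0.59 (unadjusted p = 0.040, the only 1 under 0.05) with an edgeR adjusted p of 0.57, so it did not pass, and neither did that of the other 6 genes tested (0.296% of all genes). The library at 0 was the one at 20 to 60 nt, whose 46858 counts put 3 counts at 64.0 CPM.

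Ribo-Zero Plus, the other nuclease method, gave 0 called genes of 10 by edgeR against 14.9% of 9628 genes tested, and 0 by DESeq2, with 1 (SLC25A37) at an unadjusted p under 0.05. The iron genes had a median log2 difference of -0.39 and all genes of -0.43. The library with neither oligos nor formaldehyde (1840190 counts) held TFRC at 1304, FTH1 at 140, FTL at 112 and NCOA4 at 367 CPM, beside undepleted means of 1165, 127, 94.9 and 432 CPM. The other 3 libraries held 116742 to 184722 counts and scattered. FTH1 had 0 counts in the library with formaldehyde alone, where 14.7 would stand at the undepleted level, and is at least 4.93-fold lower there by a floor of 3 counts. Of 1345 genes within 1.5-fold of the undepleted FTH1 level, 5.13% were also at 0 in that library. FTH1 stood at 141 CPM with oligos and 133 CPM with both. SLC25A37 had 11 counts (94.2 CPM) with formaldehyde and 0 with oligos and with both, where 4.01 and 3.58 counts would stand at the undepleted level. The fitted differences of SLC25A37 (-4.03 ± 1.42) and SLC40A1 (-3.43 ± 2.06) go against the library without additions. It held 18.5 and 15.2 CPM of them (34 and 28 counts), beside undepleted means of 21.8 and 11.8 CPM. TFRC stayed between 1187 and 1662 CPM. The count of called genes rested on single libraries. It was 4 (FTH1, SLC11A2, STEAP3 and TFRC) without the library that had no additions or without the one with both, and 2 (FTL and SLC25A37) without the one with formaldehyde or the one with oligos. Over all genes those fits called 3569 of 10111, 3534 of 10148, 2940 of 10179 and 2941 of 10150, against 1430 of 9628 with all libraries, so the shares of iron genes were near those of all genes. In those fits the missing combination is filled in by the additive terms.

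**Figure D5:**
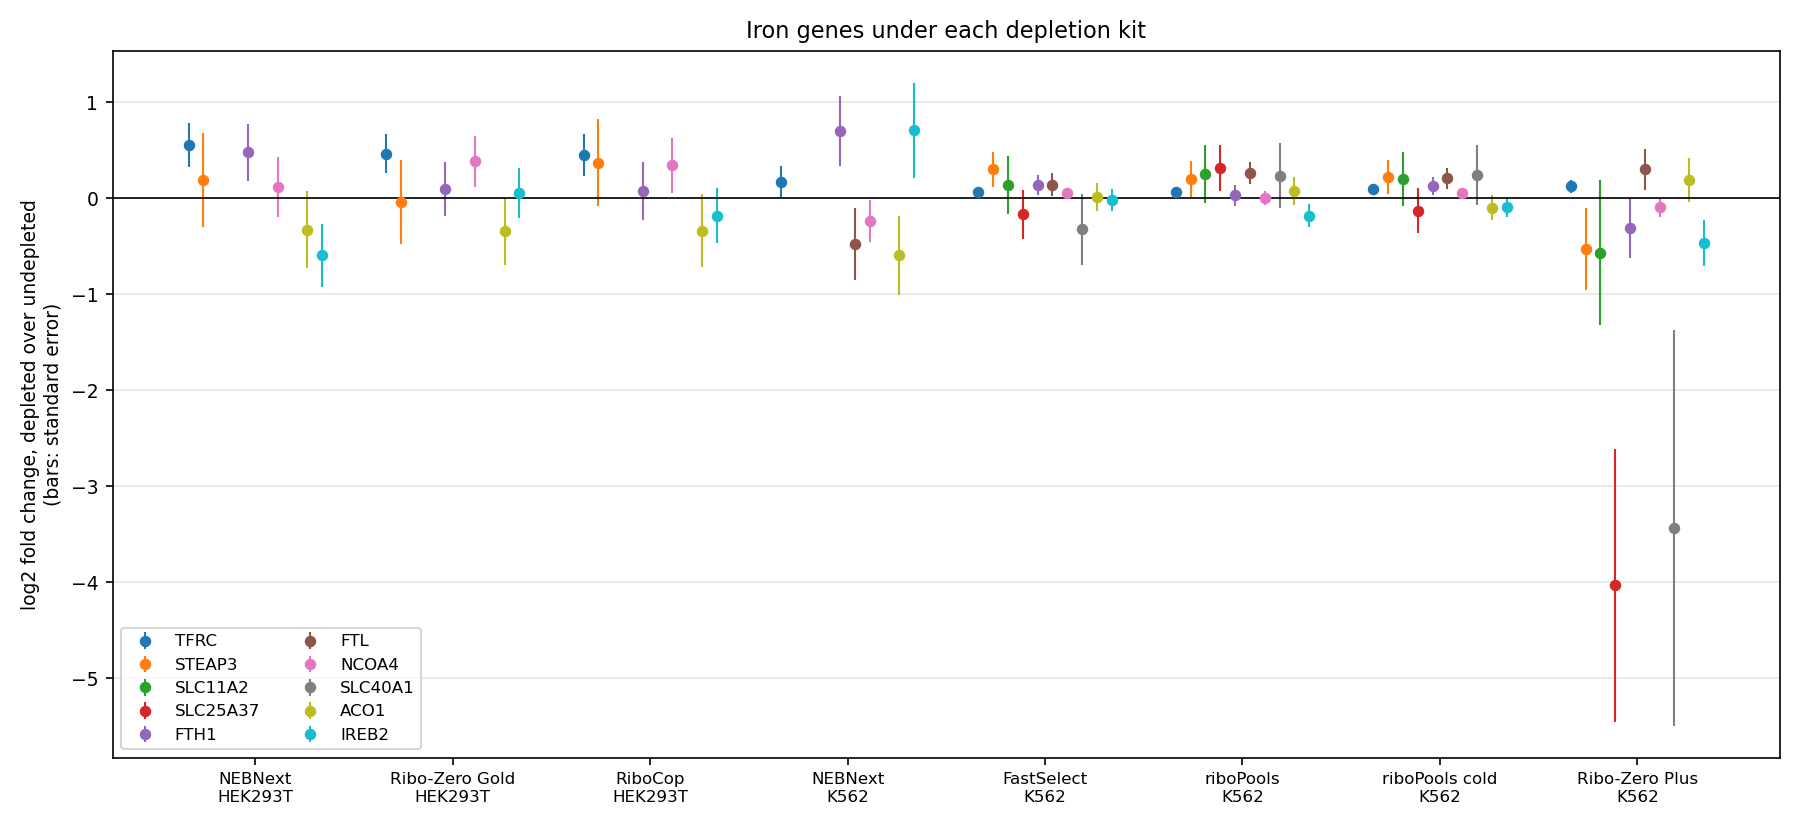
Log2 fold change of each tested iron gene, depleted over undepleted, for 8 kit comparisons (x axis), with the standard error as a bar. None passed an adjusted p of 0.05 in edgeR's quasi-likelihood test, and the widest values are SLC25A37 and SLC40A1 with Ribo-Zero Plus, each with 0 counts in 2 of those 4 libraries.

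Other genes of iron metabolism were counted in K562 against HEK293T, undepleted, from lists chosen with earlier results of these data known. The share of all genes called was 35.5%. Of 10 tested uptake and transport genes 2 were higher and 0 lower, with a list median of -0.28. They were TFR2, the second transferrin receptor (47.1 ± 0.57 CPM against 0 counts, at least 4.29-fold), and the endosomal sorting gene SNX3 (1.2 ± 0.36). Of 7 tested genes of storage, iron chaperoning and haem breakdown, 3 were higher and 1 lower, with a median of 0.07. BLVRB, a biliverdin and flavin reductase of erythroid cells, was at 396 ± 1.963 CPM against 39.5 ± 8.69 (3.56 ± 0.28, edgeR adjusted p = 2.8e-34). PCBP1, which brings iron to ferritin, was at 773 ± 5.23 against 461 ± 43.5 CPM (1.03 ± 0.13, edgeR adjusted p = 1.7e-14), and HERC2, a ubiquitin ligase for NCOA4, was called as higher (0.92 ± 0.32) at 108 ± 18.8 against 64.6 ± 56.0 CPM, a spread in HEK293T that reaches the K562 level. HMOX1, the inducible haem oxygenase, had 0 counts in K562 against 52.5 ± 27.1 CPM and was at least 39.6-fold lower.

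Of 9 tested genes of IRP control and other mRNAs known or reported to bear an iron-responsive element, 2 were higher and 4 lower, with a median of -0.59. SKP1, a part of the ligase that degrades IRP2, was higher by 0.81 ± 0.21 (edgeR adjusted p = 0.00061), as was CDC14A, with 68 counts against 3, and CUL1, of the same ligase, was lower (-0.59 ± 0.23). EPAS1 and HIF1A, oxygen-sensing transcription factors, were lower (-1.99 ± 0.77 and -1.53 ± 0.27). PFN2 had 0 counts in K562 and was at least 47.6-fold lower. ALAS2, the erythroid enzyme that opens haem synthesis, had 22 counts in K562 and 0 in both HEK293 lines, and too few to be tested. Of 25 iron-sulphur cluster assembly genes, 2 were higher and 2 lower, with a median of 0.13. The chaperone HSPA9 was at 1169 ± 27.4 against 938 ± 27.9 CPM (0.59 ± 0.096, edgeR adjusted p = 1.1e-08) and FDXR was higher by 2.53 ± 0.54, while NUBPL and IBA57 were lower (-2.03 ± 0.64 and -1.01 ± 0.40). Of 2 tested export genes, HEPH, a ferroxidase, had 106 ± 7.19 CPM in K562 and 0 counts in HEK293T, at least 9.67-fold. In the other comparisons the lists differed. The share of all genes called was also larger there, at 63.4% in the bead-depleted libraries and 52.3% against HEK293FT. Its split by direction is given above. The uptake list had 5 of 11 higher and 0 lower in the bead-depleted libraries (median 0.35) and 2 of 10 and 0 against HEK293FT (0.54). The storage list had 3 of 7 higher and 4 lower (median -0.21), and 3 and 3 against HEK293FT (-0.33). IRP control gave 3 of 10 higher and 5 lower bead-depleted, and 3 of 9 and 3 against HEK293FT. Iron-sulphur assembly gave 5 of 25 and 5, and 5 and 3. Apart from BLVRB, PCBP1, SKP1 and HSPA9, the genes of these lists were named after their values were seen.

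The genes whose level over the 26 libraries was most like that of TFRC were KRT19, CAT and SLC38A5, each with a Pearson correlation of 0.974 of log2(CPM + 1) among 3743 genes. For FTH1 they included NIPBL (0.972) and TM9SF3 (0.966), and for FTL they were TIMP1 (0.941), TFDP2 (0.931) and ELOVL5 (0.928). FTH1 had 0 counts in the Ribo-Zero Plus library with formaldehyde alone. On the log2 scale that library weighs heavily on its correlations, so they are no sign of shared variation over the other libraries. All these values describe libraries that share cell lines, experiments and depth.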

How the data were processed

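Per the file headers and values, each of the 4 tables deposited by the authors holds raw read counts of coding sequences, 1 transcript a row. The authors' per-million values of the same rows were not used. The submitters' processing notes name STAR, CASAVA 1.8 and GRCh38 (hg38). Strand use and the handling of duplicates or of reads with several matches are not given in the sources used here. PCR reads are not independent molecules, and counting intervals and floors (3 counts) hold counting error alone.

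Libraries were grouped by their titles. CPM is a count over its library total. Tests used the quasi-likelihood F test of edgeR 4.0.16 under R 4.3.3, on TMM-scaled libraries, filtered by filterByExpr (minimum count 10), with Benjamini-Hochberg adjustment over all genes tested and a threshold of 0.05. The undepleted libraries of the K562 kit table, HEK293T and HEK293FT shared 1 fit, in which the single HEK293FT library was assumed to vary like the others. Kits were fitted within their table, NEBNext in K562 with size as a term on 1 residual degree of freedom, and Ribo-Zero Plus with additive terms for oligos and formaldehyde. An SE was recovered from each log2 fold change and its F statistic, and 95% intervals are normal. DESeq2 1.42.0 was an alternative, beside other scalings, no filter, other sets of libraries and leaving out each library. Some of the fits were tried on simulated counts, with a spread set alike for all genes and libraries. That does not test how well they handle the spread of these libraries.

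Of the deposited transcripts, 97.28% matched GENCODE release 29 with a coding sequence. The release behind the deposited rows is not given in the sources used here. Shared words were searched among its transcripts, with overlapping genes merged into 1 locus. The RiboCop replicates did not differ beyond sampling noise (chi-square per degree of freedom 1.027, p 0.103), but have different barcodes and totals (156200 and 290502 counts), and were kept as 2. The other replicate pairs outside the size-selection table were little above sampling noise. Their chi-square per degree of freedom ran from 1.044 (HEK293T undepleted) to 1.205 (HEK293T with NEBNext).

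The members and the gene lists were chosen with earlier results of these data known. The rule for naming genes took the 10 members and, per list, up to 3 called genes in each direction. Only genes averaging 100 counts or more were ranked, by their change in K562 against HEK293T. From the iron lists this rule gave BLVRB, PCBP1, SKP1 and HSPA9. The other genes named from those lists stand outside the rule and were named after their values were seen. GATA1 also stands outside it. For TFRC, FTH1 and FTL the 3 most alike genes with a mean of at least 50 CPM are named, except 1 that is not reported here.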

Additional observations from a re-analysis of the deposited data

How the results depend on the processing

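The count of iron genes called stayed within 1.5 times its value in all comparisons and alternatives except Ribo-Zero Plus in K562. There it was 0, became 1 with DESeq2 size factors (TFRC), and ranged from 0 to 4 when 1 library was left out. Leaving out 1 library gave 3 to 4 genes for K562 against HEK293T undepleted, 5 to 6 against HEK293FT and 5 to 7 in the bead-depleted libraries. Values that turned sign were all small or rested on few counts, and the cause was not tested. For K562 against HEK293T undepleted, FTH1 was -0.14 with total count scaling, from -0.05175 to 0.2688 without 1 library (below 0 without K562 replicate 2) and -0.33 with the size-selection libraries in place of the kit libraries, ACO1 was 0.43 with the latter, and STEAP3 ranged from -0.834 to 0.4037 without 1 library (above 0 without HEK293T replicate 2). With the size-selection libraries IREB2 became a called gene (-1.45, adjusted p = 0.0052 in edgeR); those libraries held 13 and 0 counts of it, and the cause was not tested. In the bead-depleted libraries total count scaling gave ACO1 -0.22 and FTH1 -0.15. STEAP3 in K562 against HEK293FT was 0.0191 with DESeq2 size factors, 0.01698 in DESeq2's Wald test and -0.1026 to 0.04368 without 1 library (above 0 without K562 replicate 2).

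Counts over all genes moved by more than 1.5 times as follows. K562 against HEK293T undepleted fell from 3424 to 1410 with the size-selection libraries and 2124 without HEK293T replicate 2. Against HEK293FT it fell from 5044 to 3000 with DESeq2. HEK293FT against HEK293T fell from 406 to 237 with DESeq2 and 219 to 264 without 1 HEK293T library, and the bead-depleted count from 6395 to 4138 with riboPools and RiboCop alone. NEBNext in HEK293T (143) gave 58 with DESeq2 and 56 to 150 without 1 library, and NEBNext in K562 (106) gave 17 with DESeq2, 40 without the size term and 0 to 275 without 1 library. Ribo-Zero Plus (1430) gave 839 with DESeq2 size factors, 0 with its own and the undepleted libraries alone and 160 to 3569 without 1 library. The other kits and the difference between NEBNext effects stayed at or under 27 genes.

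The replicate numbers do not pair the libraries: deviations of same-numbered libraries from their group means correlated between -0.048 and 0.049. With the number as a replicate block the counts of iron genes called stayed at 4 (undepleted) and 6 (bead-depleted), and at 0 for the kits that could be fitted so. Leaving out the single HEK293FT library could not be fitted for its comparisons. Depth limits the rarer genes most: over the 8 HEK293T libraries SLC11A2, SLC25A37 and SLC40A1 had 52, 12 and 3 counts.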
